A study of Homo sapiens with 12 samples.

Results

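OCI-AML3 is an established human acute myeloid leukaemia line, and the comparison described here asked what an ERK inhibitor changes in cells that already receive venetoclax. It set the 3 libraries of the combination against the 3 libraries of venetoclax, over all genes of the deposited count table: 6 of the 12 libraries of the series. Each group was treated for 24 h. The venetoclax group received venetoclax, labelled ABT199, which blocks the survival protein BCL2; the combination group received venetoclax and an ERK inhibitor. The labels call the inhibitor ERKi, and compound 27 in the group that received it without venetoclax. The other 6 libraries, 3 with the solvent DMSO and 3 with ERKi and no venetoclax, served to ask whether ERKi acted differently when venetoclax was absent. All groups share the same cell line, so the data describe this line only, and no label states that replicates came from separate cultures. The p-values therefore measure the spread between these libraries, which may be technical. Poly(A) RNA was sequenced as paired ends, with 20179886 to 20498723 counts in the venetoclax libraries and 19199296 to 20170829 in the combination libraries.

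ERK is the last kinase of the RAS, RAF and MEK cascade, through which growth factor receptors and oncogenic RAS drive the cell cycle and metabolism. Active ERK enters the nucleus and switches on its own feedback inhibitors, the DUSP phosphatases and the Sprouty and Spred proteins, together with ETS and EGR transcription factors and cyclin D1. In myeloid leukaemia, ERK signalling is also known to stabilise the survival protein MCL1 and to phosphorylate Drp1, the GTPase encoded by DNM1L that divides mitochondria. The series names that fission step as its question, and RNA levels measure neither the phosphorylation nor fission itself.

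Marker genes bore out the AML label in part. Transcripts of 10 myeloid leukaemia markers summed to 1370 to 1420 CPM with venetoclax and to 2390 to 2400 CPM in the combination. CPM for sums and groups of RNAs is per 1000000 counts of the library. For single genes below it is per 1000000 after TMM scaling. Most of the sum came from PTPRC, CEBPA, CD4 and SPI1. MPO was low, at 41, 31 and 33 counts with venetoclax and 62, 63 and 53 in the combination. IL3RA was near absent, at 1, 4 and 1 and 3, 3 and 0 counts. Summed lymphoid markers lay between 0.76 and 1.46 CPM and erythroid and megakaryocyte markers between 1.37 and 1.61 CPM with venetoclax and between 1.87 and 2.5 CPM in the combination, with the T-cell gene CD3D and the globin gene HBB at 0 counts in all 6. Epithelial and endothelial markers summed to at most 1.24 and 0.545 CPM. Stromal markers summed to 40.8 to 76.4 CPM with venetoclax and to 26.8 to 28.3 CPM in the combination, and this difference is taken up beside the genes it touches. Most of the combination sum was FN1, at 516, 468 and 514 counts, so the sum understates the fall of the collagen genes. Across the 6 libraries the groups were parted by the first principal component (81.4% of the variance), and the second held 5.8%. The combination libraries gave more of their counts to few genes: the 10 largest took 10.3 to 11.2% of counts, against 5.93 to 5.98% with venetoclax.

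Adding ERKi to venetoclax changed most of the genes that could be tested. Of 15173 tested genes, 10047 (66.2%) were called at an adjusted p under 0.05, of which 4864 (32.1%) were higher and 5183 (34.2%) lower in the combination. At least 2-fold changes were rarer, with 1733 genes (11.4%) higher and 1141 (7.52%) lower. Changes of at least 4-fold were called for 494 higher and 299 lower genes. The median log2 fold change was 0, with the central range from -0.44 to 0.51 (quartiles). In 11013 genes (72.6%) every library of one group lay above every library of the other. With so many genes called, a share of called genes near these background shares says nothing particular about a gene list, and the lists below are read against them. Upper-quartile scaling in place of TMM moved the median to 0.12 and the share of higher genes among those called from 48.4% to 57.7%, so the balance of rises and falls depends on the scaling.

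**Figure D1:**
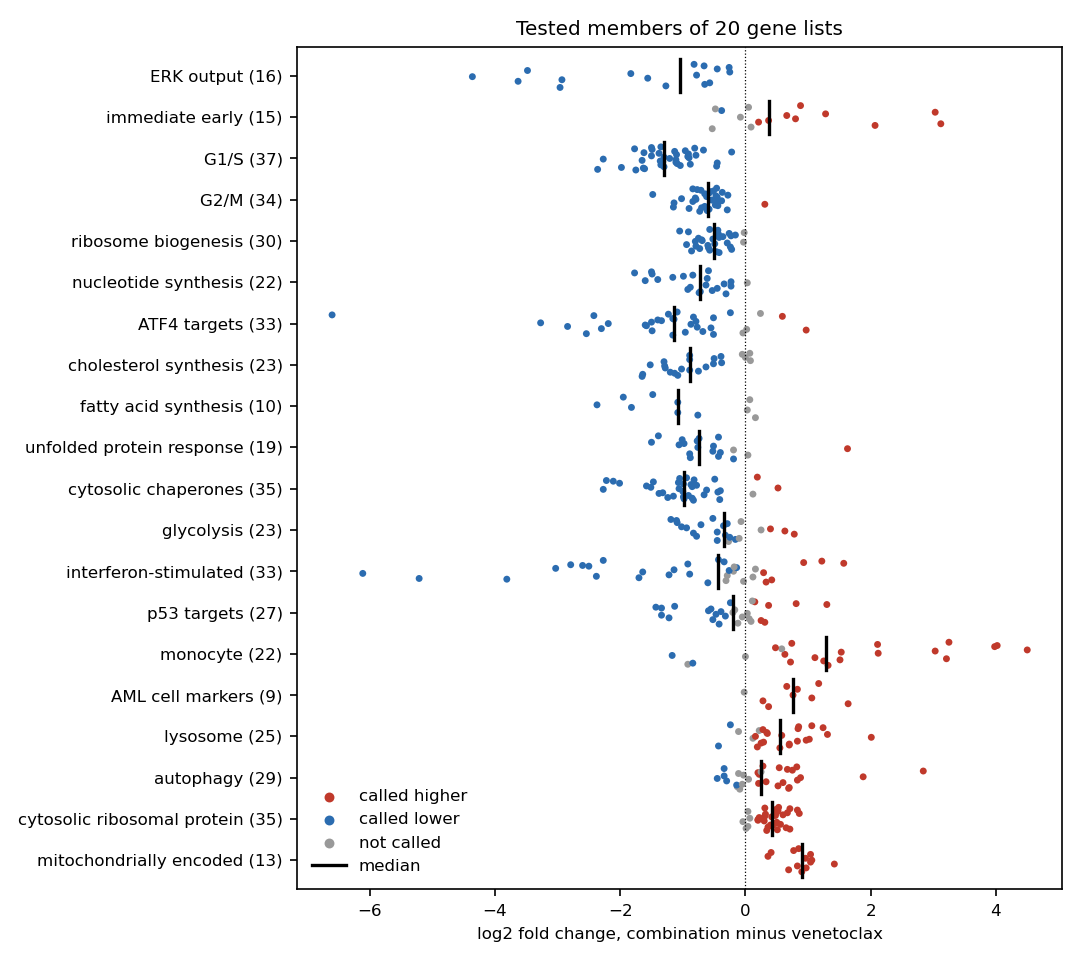
Log2 fold change (combination minus venetoclax, horizontal axis) of the tested members of 20 gene lists, 1 point per gene, red where called higher, blue where called lower and grey where not called; the black bar is the list's median and the number of tested members is in brackets. The ERK output, G1/S and G2/M points lie left of 0 apart from 1 G2/M gene, and the 13 mitochondrially encoded genes lie right of it.

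Transcripts that ERK is known to switch on fell. Of 24 named ERK output genes 16 passed the filter on low counts, and 16 of the 16 were lower in the combination, 8 of them at least 2-fold, with a median log2 fold change of -1.04 against 0 over all genes. ETV4 encodes an ETS transcription factor (chromosome 17, 43527846 to 43546340, GRCh38). It stood at 17.1, 18.1 and 18.1 CPM in the 3 venetoclax libraries and at 0.81, 0.921 and 0.838 CPM in the 3 combination libraries. No combination library came near a venetoclax library, and the log2 fold change was -4.36 (SE 0.14, adjusted p = 2.09e-13). The cyclin D1 gene CCND1, which couples growth signals to the cell cycle, had 50.3, 53.7 and 51.2 CPM with venetoclax and 6.17, 5.53 and 8.23 CPM in the combination. Its log2 fold change of -2.96 (SE 0.11, adjusted p = 6.94e-13) left all 3 combination libraries below all 3 venetoclax libraries.

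The feedback phosphatase DUSP6, which removes the activating phosphates from ERK, was at 15.4, 14.1 and 17.8 CPM with venetoclax and at 1.62, 1.19 and 0.995 CPM in the combination. PHLDA1, a gene induced by ERK, was at 28.8, 29.5 and 31.4 CPM and then at 2.99, 2.49 and 2.52 CPM. Both groups of libraries were tight and far apart, and the log2 fold changes were -3.63 (SE 0.17) and -3.48 (SE 0.13). EGR1, an early growth response factor, had 15.4, 15 and 14.8 CPM and 1.97, 2.33 and 1.62 CPM, a log2 change of -2.93 (SE 0.17, adjusted p = 1.37e-10). Smaller falls were seen in the other feedback genes. On the log2 scale SPRY4 changed by -0.82, SPRY2 by -0.66, SPRED1 by -0.45, SPRED2 by -0.26, DUSP4 by -0.65 and DUSP5 by -0.57. The ETS factors ETV1 and ETV5 changed by -1.56 and -0.78, the AP-1 member FOSL1 by -1.83 and the chemokine gene CXCL8 by -1.27. MYC, the growth-promoting transcription factor, fell least of the 16: it had 276, 302 and 277 CPM with venetoclax and 243, 234 and 244 CPM in the combination, a log2 change of -0.25 (SE 0.056, adjusted p = 0.000969).

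**Figure D2:**
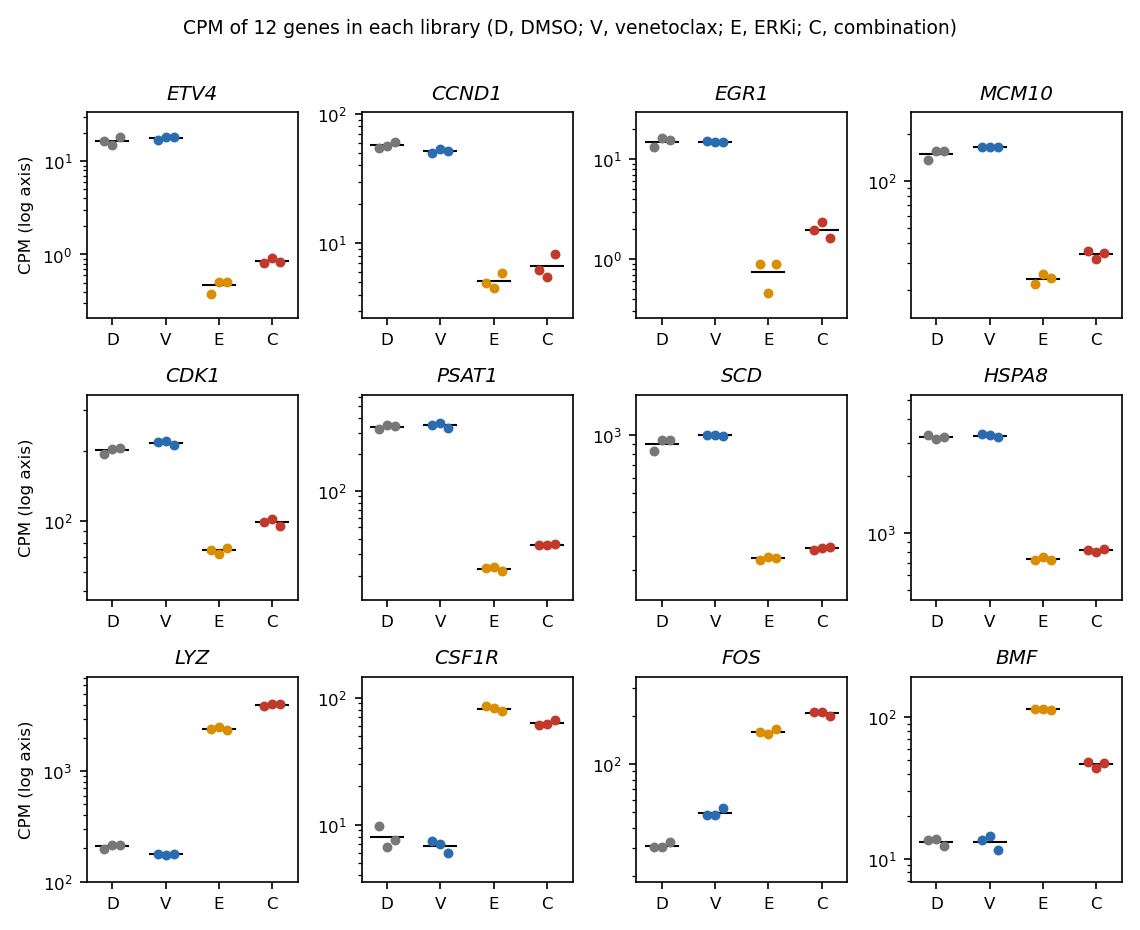
CPM of 12 genes in each of the 12 libraries (vertical log axis; D, DMSO; V, venetoclax; E, ERKi; C, combination), 1 point per library, with a bar at the group mean. In each panel the 3 C points lie apart from the 3 V points, below them for ETV4, CCND1, EGR1, MCM10, CDK1, PSAT1, SCD and HSPA8 and above them for LYZ, CSF1R, FOS and BMF.

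The immediate early genes, which stimuli induce within minutes and some of which ERK helps to induce, did not follow the ERK output list. Of 15 tested members 9 were higher and 1 lower, with a median of 0.37; without venetoclax replicate 1 or combination replicate 1 the lower members numbered 2. KLF4, a zinc finger factor of monocyte differentiation, went from 14, 13.7 and 11.3 CPM to 105, 111 and 103 CPM, and FOS, a subunit of AP-1, from 48, 47.7 and 53.5 CPM to 211, 213 and 201 CPM. Both rose in every combination library, by 3.03 (SE 0.069) and 2.07 (SE 0.056) on the log2 scale. FOSB (3.12), KLF2 (1.28), ZFP36 (0.88), JUN (0.80), JUND (0.66), IER5 (0.37) and IER2 (0.21) were called higher as well. KLF6 was the lower gene (-0.38), while JUNB (-0.08), BTG2 (0.09), ATF3 (-0.53), NR4A1 (-0.48) and NR4A2 (0.05) did not pass the test.

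Genes of the cascade itself moved both ways, with 11 of 26 tested members higher, 8 lower and a median of 0.08. Over all genes tested 32.1% were higher and 34.2% lower. RASA3, a GTPase activator that switches RAS off, rose by 1.13 (SE 0.058) from 71.7, 75.2 and 74.4 CPM to 163, 161 and 159 CPM. RASA2, a relative with the same role, fell by 1.03 on the log2 scale, from 64, 68.2 and 64.9 CPM to 32.8, 32.9 and 31.1 CPM. These were the only members past a 2-fold change in this comparison. Among the kinases, MAP2K1 (MEK1) was called lower (-0.50) and ARAF higher (0.45). MAPK3 (ERK1, -0.04), BRAF (0.00) and MAP2K2 (0.12) did not pass the test. NRAS (-0.34) fell, and the adaptor and exchange factor genes GRB2 (0.26), SOS1 (0.23) and SOS2 (0.40) rose.

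Receptors that feed the cascade were mostly higher. Of 22 tested receptor tyrosine kinases, cytokine receptors and adaptors 15 rose and 5 fell, with a median of 0.66. Over all genes tested 32.1% rose and 34.2% fell. LTK, a receptor tyrosine kinase, was near absent with venetoclax at 2.05, 1.32 and 1.33 CPM and reached 41.4, 40.9 and 44.5 CPM in the combination, a log2 change of 4.75 (SE 0.11, adjusted p = 6.27e-15). PRLR, the prolactin receptor, went from 2.85, 1.42 and 3.21 CPM to 44.9, 42.1 and 44.2 CPM (4.13, SE 0.18). The myeloid growth factor receptors rose with them, CSF1R by 3.21, CSF3R by 1.95 and FLT3 by 0.82. FLT3 stood at 167, 174 and 163 CPM with venetoclax and at 289, 302 and 298 CPM in the combination. The lower members were the growth hormone receptor GHR (-0.95) and, named after their values were seen, IGF1R (-0.72), TYRO3 (-0.62), IRS1 (-0.38) and GAB1 (-0.36).

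Genes of DNA replication and mitosis fell. All 37 G1/S genes were tested and 37 were lower, 26 of them at least 2-fold, with a median of -1.30. All 34 G2/M genes were tested and 33 were lower, with a smaller median of -0.60. MCM10, a factor that starts replication forks, went from 164, 166 and 166 CPM to 35.9, 31.9 and 34.8 CPM (-2.27, SE 0.066, adjusted p = 5.24e-14). CDC6, an origin licensing factor, went from 143, 145 and 138 CPM to 34.3, 35.4 and 38.4 CPM (-1.98, SE 0.054). In both genes the 3 combination libraries lay close together and far below the venetoclax libraries. RRM2, a ribonucleotide reductase subunit, changed by -1.77, and the helicase subunits MCM4 and MCM6 by -1.30 and -1.50. Among mitotic genes, the spindle checkpoint gene MAD2L1 changed by -1.48, the cyclin CCNA2 by -1.15, the kinase gene CDK1 by -1.14, the spindle protein gene HMMR by -1.02 and the checkpoint kinase gene BUB1 by -0.90. CDC25B, a phosphatase that activates CDK1, was the single higher member and was picked out after its values were seen. It stood at 86.3, 89.7 and 86.5 CPM with venetoclax and at 108, 109.9 and 107 CPM in the combination (0.31, SE 0.052).

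The members of each list moved together, and their promoters were read from the RefSeq table of GRCh38.p14 as the 250 bases before the transcript start. Both strands were searched. The E2F motif was TTCCCGC or TTGGCGC, the cell cycle homology region (CHR) was TTTGAA, and the CCAAT box was CCAAT; the E2F and CCAAT motifs can share bases. An E2F motif stood in 17 of the 30 G1/S genes that had an entry (56.7%) and in 5 of 29 G2/M genes (17.2%), against 7.95% of all 27305 promoters and 12.2% of the 11022 promoters of tested genes. A CHR stood in 15 of 29 G2/M genes (51.7%) and in 1 of 30 G1/S genes (3.33%), against 13.6% of all promoters and 8.48% of those of tested genes. The CCAAT box was held by 22 of 29 G2/M genes (75.9%) and 19 of 30 G1/S genes (63.3%), against 33.0% of all promoters and 34.8% of those of tested genes. The ETS motif CCGGAAG stood in 0 of the 9 ERK output genes with an entry and in 4 of 12 mitochondrial fission genes (33.3%), against 8.82% of all promoters and 15.9% of those of tested genes. A match describes the letters and is neither a shown binding site nor a cause, and no match says only that the letters are not in this window. MCM6 (chr2:135876444-135876693, minus strand), CDK1 (chr10:60778081-60778330, plus strand) and HMMR (chr5:163460382-163460631, plus strand) are shown because they are members with values above whose windows hold these motifs; each is written 5′ to 3′ on the strand of its gene, ending at the base before the transcript start, with E2F, CHR and CCAAT matches in capitals.
MCM6: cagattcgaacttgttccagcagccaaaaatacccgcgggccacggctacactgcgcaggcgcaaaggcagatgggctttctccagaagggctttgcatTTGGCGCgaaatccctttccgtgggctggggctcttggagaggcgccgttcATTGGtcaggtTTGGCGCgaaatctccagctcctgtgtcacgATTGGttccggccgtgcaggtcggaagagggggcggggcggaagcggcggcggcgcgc
CDK1: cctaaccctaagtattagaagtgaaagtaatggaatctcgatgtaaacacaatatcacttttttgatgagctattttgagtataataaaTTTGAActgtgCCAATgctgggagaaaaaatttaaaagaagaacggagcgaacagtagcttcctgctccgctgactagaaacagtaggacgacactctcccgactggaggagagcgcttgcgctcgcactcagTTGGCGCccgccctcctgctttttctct
HMMR: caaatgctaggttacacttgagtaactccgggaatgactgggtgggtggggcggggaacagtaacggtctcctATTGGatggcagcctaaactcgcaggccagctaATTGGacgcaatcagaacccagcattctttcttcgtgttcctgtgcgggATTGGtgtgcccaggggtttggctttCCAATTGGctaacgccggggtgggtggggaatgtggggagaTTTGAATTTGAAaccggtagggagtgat
In MCM6 the E2F matches began 151 and 89 bases before the start, and in CDK1 the CHR began at 161, a CCAAT box at 150 and an E2F match at 28. HMMR had a pair of CHR matches side by side, beginning 28 and 22 bases before the start, and several CCAAT matches. The MCM6 transcript fell from 653, 656 and 616 CPM to 220.1, 224 and 237 CPM (SE 0.044 around -1.50), CDK1 from 218, 221 and 212 CPM to 99, 102 and 95 CPM (SE 0.046 around -1.14) and HMMR from 155, 141 and 148 CPM to 68, 75.3 and 75.4 CPM (SE 0.059 around -1.02).

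Genes that brake the cycle showed no common direction. Of 12 tested cyclin-dependent kinase genes, inhibitors and pocket proteins, 4 were higher and 7 lower, beside 32.1% and 34.2% of all genes tested. CDKN2A (1.48), CDKN2B (1.30) and CDKN2D (0.48), inhibitors of CDK4 and CDK6, and the pocket protein gene RBL2 (0.14) rose. CDKN2C, of the same inhibitor family, fell from 66.8, 69.1 and 65.3 CPM to 48.4, 49.1 and 54 CPM (-0.41, SE 0.054). CDKN2A and CDKN2B were low throughout, at 9.36, 9.91 and 9.38 CPM and 2.83, 2.76 and 2.93 CPM in the combination. CDKN1A, the p21 inhibitor induced by p53, was lower, at 16.4, 15.5 and 15.9 CPM with venetoclax and 10.5, 12.5 and 10.4 CPM in the combination (-0.52, SE 0.092, adjusted p = 0.000105). The retinoblastoma gene RB1 (-0.72), its relative RBL1 (-1.12), CDK6 (-0.98) and CDK4 (-0.67) fell too, and CDKN1B (p27, 0.01) did not pass the test. Of 27 tested p53 targets 13 were lower and 6 higher, beside 34.2% and 32.1% of all genes tested, with a median of -0.20. The stress proteins SESN2 (-1.34) and SESN1 (-0.55), the metabolic regulator TIGAR (-1.13), RPS27L (-0.59) and the p53 inhibitor MDM2 (-0.47) fell. TP53I3 (1.30) and TP53INP1 (0.81) rose, and these were picked out after their values were seen.

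Biosynthetic genes were lower across several pathways. Of 33 tested targets of ATF4, the transcription factor of amino acid shortage, 28 were lower and 2 higher, with a median of -1.14. PSAT1, the second enzyme of serine synthesis (chromosome 9, 78297125 to 78330093, GRCh38), went from 351, 361 and 328 CPM with venetoclax to 35.6, 35.6 and 36.8 CPM in the combination. The combination libraries lay far below the venetoclax libraries, with a log2 change of -3.27 (SE 0.054, adjusted p = 9.38e-17). The mitochondrial folate enzyme gene ALDH1L2 changed by -2.54, the amino acid carrier gene SLC7A5 by -2.42, and the aminoacyl-tRNA synthetase genes GARS1 and AARS1 by -1.58 and -1.16. STC2, a secreted glycoprotein of this list, fell from 11.4, 10.5 and 10.5 CPM to 0.0506, 0.217 and 0.0524 CPM. CEBPB (0.97) and the cystine carrier gene SLC7A11 (0.59), picked out after their values were seen, were the 2 higher members. The ATF4 motif TGATGNAA stood in the 250 bases of 3 of the 27 members with a promoter entry (11.1%), against 3.19% of all promoters and 1.52% of those of tested genes. AARS1 (chr16:70289507-70289756, minus strand) is shown as the member with values given here that held it, with the match in capitals, on the reverse strand 187 to 180 bases before the start.
AARS1: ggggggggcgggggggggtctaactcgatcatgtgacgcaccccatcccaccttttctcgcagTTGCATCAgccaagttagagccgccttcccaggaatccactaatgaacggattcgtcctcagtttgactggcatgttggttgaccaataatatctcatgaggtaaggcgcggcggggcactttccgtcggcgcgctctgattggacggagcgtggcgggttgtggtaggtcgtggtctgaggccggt
The AARS1 transcript had 416, 422 and 406 CPM with venetoclax and 183, 184 and 189 CPM in the combination (-1.16, SE 0.04).

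Lipid synthesis fell with it. Of 23 tested cholesterol genes 19 were lower and none higher (median -0.89), and of 10 tested fatty acid genes 7 were lower and none higher (median -1.08); upper-quartile scaling called 1 of the former and 2 of the latter higher. SCD, the desaturase that makes oleic acid, went from 994, 1002 and 986 CPM to 252, 259 and 261 CPM (-1.95, SE 0.049, adjusted p = 9.33e-15), and the groups did not overlap. The desaturases FADS2 and FADS1 changed by -2.37 and -1.82, the fatty acid synthase gene FASN by -1.08, and ACLY, which supplies the acetyl units, by -0.76. In the sterol branch ACAT2 was at -1.65, the sterol sensor partner INSIG1 at -1.52, MSMO1 at -1.30 and IDI1 at -1.29. SREBF2, which encodes the main transcription factor of this branch and was picked out after its values were seen, did not pass the test (-0.05). The sterol regulatory motif CACCCCA stood in 4 of the 17 cholesterol genes with a promoter entry (23.5%), against 6.81% of all promoters and 6.47% of those of tested genes.

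Nucleolar and nucleotide genes were lower but by less. Of 30 tested ribosome biogenesis genes 28 fell, 0 rose and the median was -0.50, and of 22 tested nucleotide synthesis genes 21 fell, with a median of -0.73. Nucleolin (NCL) went from 2336, 2361 and 2295 CPM to 1339, 1321 and 1379 CPM (-0.79, SE 0.035), and NPM1, the nucleolar gene often mutated in AML, from 2001, 1977 and 1889 CPM to 1182, 1195 and 1235 CPM (-0.70, SE 0.039). NOLC1 (-0.94), DDX21 (-0.86) and NOP56 (-0.80), all needed to make ribosomal RNA, fell in like measure. RRM1 (-1.49), the purine enzyme gene PAICS (-1.40), PRPS1 (-0.99) and CTPS1 (-0.92) were among the falls of the nucleotide list, whose largest was -1.77. Cytosolic ribosomal protein genes went the other way: 30 of 35 were higher and none lower, with a median of 0.43. RPS28 was at 127, 132 and 123 CPM and then at 214, 241 and 226 CPM (0.83, SE 0.051), and RPS19 changed by 0.67. Ribosomal protein genes have many near-identical pseudogenes, and how reads were shared among copies is not given in the sources used here.

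Chaperone transcripts fell, on a list added after the values were seen. Of 35 chaperones and cochaperones tested, 32 were lower and 2 higher (1 higher without venetoclax replicate 2 or 3 or combination replicate 3), with a median of -0.98, and 15 fell at least 2-fold. HSPA8, the constitutive HSP70, had 3317, 3296 and 3201 CPM with venetoclax and 818, 794 and 829.5 CPM in the combination (-2.01, SE 0.036, adjusted p = 2.97e-16). FKBP4 (-2.27), HSPH1 (-2.22), HSP90AA1 (-1.51) and HSPD1 (-1.47) fell as far or nearly so. HSF1, the transcription factor of the heat shock response, was higher (0.52), as was UNC45A (0.19); both were picked out after their values were seen. In the endoplasmic reticulum 16 of 19 unfolded protein response genes were lower. The chaperone BiP (HSPA5) was at -1.06, MANF at -1.50, PDIA3 at -0.77 and the transcription factor XBP1 at -1.39. ERN1, the sensor that splices XBP1, was the single higher member, going from 18.5, 18 and 17.2 CPM to 53.7, 58.4 and 54 CPM (1.63, SE 0.066).

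Carbon metabolism changed less. Of 23 glycolysis genes 16 fell and 3 rose (median -0.35), and of 20 citric acid cycle genes 14 fell and 2 rose (median -0.32). Of 13 genes of pyruvate dehydrogenase control 8 fell and 4 rose (median -0.42). Over all genes tested 34.2% fell and 32.1% rose, and the rises among these 13 genes were near that share. The glucose carrier SLC2A3 (-1.19), the lactate carrier SLC16A1 (-1.09), PFKP (-1.02) and LDHA (-0.83) fell, and LDHA was at 1084, 1094 and 1049 CPM and then 588, 608 and 622 CPM. The pyruvate dehydrogenase subunit genes DLAT (-0.98), PDHX (-0.58) and DLD (-0.51) and the pyruvate carrier MPC1 (-0.63) fell as well. The 4 higher members of that list were the 4 kinases that switch the complex off. PDK4 rose from 2.9, 2.18 and 2.71 CPM to 27.4, 26.5 and 27.6 CPM (3.38, SE 0.11), and PDK1 (0.32), PDK2 (0.46) and PDK3 (0.56), picked out after their values were seen, rose by less. TXNIP, which restrains glucose uptake, rose from 403, 399.8 and 385 CPM to 1029, 1045 and 1047 CPM (1.39, SE 0.038). It belongs to a list of 25 FOXO and insulin signalling genes. Of these 13 rose and 7 fell, beside 32.1% and 34.2% of all genes tested.

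Genes that divide mitochondria were lower in part, and genes that fuse them or hold their cristae were lower in most cases. DNM1L, which encodes Drp1 (chromosome 12, 32679301 to 32745650, GRCh38), had 132, 141 and 140.1 CPM in the venetoclax libraries and 83.9, 87.4 and 87.5 CPM in the combination libraries. The groups did not overlap, and the log2 fold change was -0.68 (SE 0.052, adjusted p = 6.37e-09). Of the 14 fission genes 8 were lower and 2 higher (median -0.20), against 34.2% and 32.1% of all genes. MTFP1, an inner membrane fission protein, was at -1.35, MTFR2 at -0.79, GDAP1 at -0.64, SPIRE1 at -0.59, SLC25A46 at -0.31, INF2 at -0.23 and the Drp1 receptor gene MFF at -0.16. Of the other Drp1 receptors, MIEF2 rose (0.39) and MIEF1 (-0.07) and FIS1 (-0.11) did not pass the test. MTFR1L rose too (0.55). Without venetoclax replicate 1 or 2 or combination replicate 2 or 3, only 1 member of the list was called higher.

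Of the 14 fusion and cristae genes 12 were lower and none higher, with a median of -0.42. OPA1, the inner membrane fusion GTPase, went from 196, 185 and 189 CPM to 137, 144 and 140.2 CPM (-0.44, SE 0.058). The mitofusins MFN2 and MFN1 changed by -0.23 and -0.22, and for MFN1 the groups overlapped. The cristae genes CHCHD3 (-0.74), IMMT (-0.52) and SAMM50 (-0.48), the prohibitins PHB1 (-0.73) and PHB2 (-0.26), and the protease gene YME1L1 (-0.54) fell, and OMA1 (-0.08) and MSTO1 (0.03) did not pass the test.

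**Figure D3:**
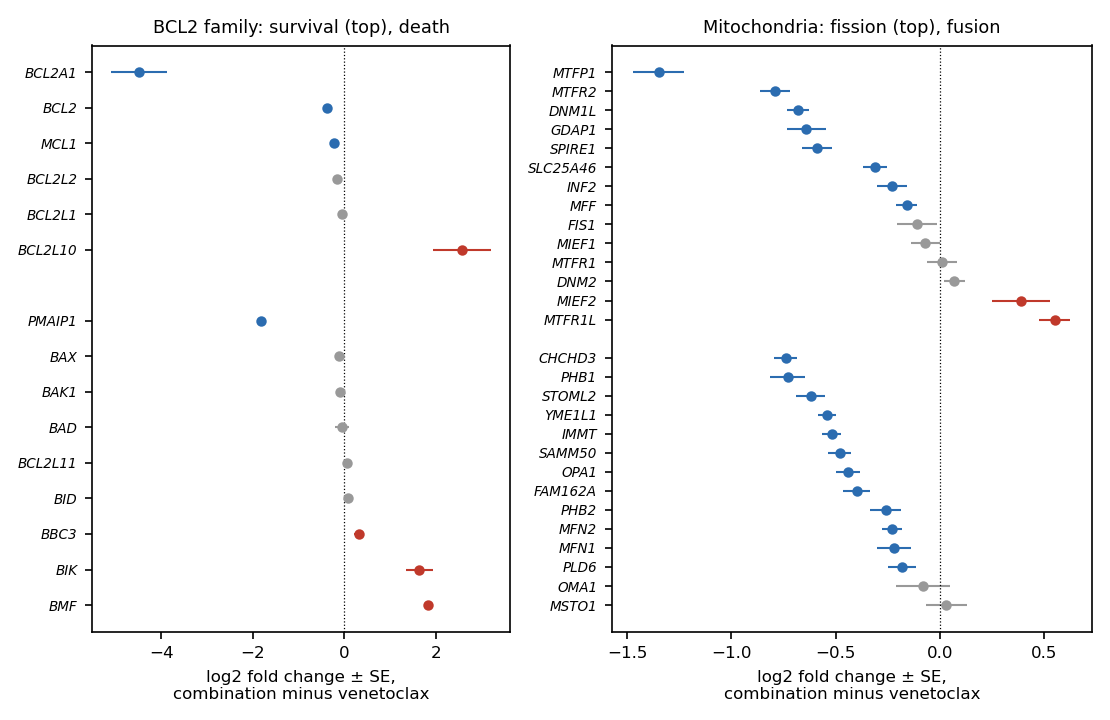
Log2 fold change with its standard error (combination minus venetoclax, horizontal axis) of the tested BCL2 family genes (left) and of the mitochondrial fission and fusion genes (right), red where called higher, blue where called lower and grey where not called. DNM1L stands at -0.68 and OPA1 at -0.44, and BMF and PMAIP1 stand at 1.82 and -1.81.

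The nuclear and mitochondrial genomes gave opposite directions for the respiratory chain. Of 50 nuclear-encoded subunit genes 32 were lower and 3 higher, with a median of -0.26. Upper-quartile scaling called 21 lower and 7 higher, and without DMSO replicate 1 the higher members numbered 5. NDUFA9 (-0.98), COX7B (-0.82), ATP5MC3 (-0.70), NDUFA5 (-0.70) and NDUFS1 (-0.62) were among the falls. All 13 mitochondrially encoded messenger RNAs rose, with a median of 0.90. COX3 had 3574, 3643 and 3737 CPM with venetoclax and 9706, 10430 and 9231 CPM in the combination (1.42, SE 0.072), and ND1 (1.06), ND4 (1.04), COX1 (0.97) and ND2 (0.96) followed. RNAs that lack a long poly(A) tail moved with them. The mitochondrial ribosomal RNAs RNR1 and RNR2 took 0.917 to 0.929% of counts in the venetoclax libraries and 3.22 to 3.36% in the combination libraries. Their part in the rise of the mitochondrial messenger RNAs was not tested.

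In the BCL2 family, which sets the threshold for mitochondrial cell death, survival and death genes both changed in part. BCL2 itself, the target of venetoclax (chromosome 18, 63123346 to 63320090, GRCh38), had 338, 337 and 334 CPM with venetoclax and 258, 255 and 261 CPM in the combination (-0.38, SE 0.059, adjusted p = 2.42e-05). MCL1, the survival protein that can replace it, had 537, 538 and 532 CPM and 452, 455 and 462 CPM (-0.23, SE 0.042, adjusted p = 0.000125). Both falls were under 2-fold, with no overlap between the groups. BCL2L1 (BCL-XL, -0.05, adjusted p = 0.643) and BCL2L2 (-0.15) did not pass the test. BCL2A1 and BCL2L10 were called lower and higher on very few reads, with BCL2A1 at 30, 21 and 27 counts in the venetoclax libraries and 0, 2 and 1 in the combination libraries, and BCL2L10 at 2, 4 and 0 and 17, 7 and 12. With only the 6 libraries compared in the fit, BCL2L10 did not pass the filter on low counts and no survival gene was called higher. Of 9 tested death genes 3 were higher and 1 lower (2 lower without DMSO replicate 1), beside 32.1% higher and 34.2% lower of all genes tested. BMF, a BH3-only protein that neutralises survival proteins, rose from 13.5, 14.6 and 11.4 CPM to 48.3, 43.4 and 47.4 CPM (1.82, SE 0.076, adjusted p = 3.4e-12). PMAIP1, which encodes the MCL1 antagonist NOXA, fell from 39.9, 42.6 and 44.1 CPM to 11.2, 12.1 and 12.7 CPM (-1.81, SE 0.098). These opposite changes were close to each other in size. BIK (1.64) and BBC3 (PUMA, 0.31) rose, and BCL2L11 (BIM), whose protein ERK is known to send for degradation, had 144, 137 and 135 CPM and 141, 148 and 142 CPM and did not pass the test (0.05, adjusted p = 0.373). The effector genes BAX (-0.12) and BAK1 (-0.09) did not pass it either. Downstream, 8 of 21 caspases and regulators fell and 5 rose, beside 34.2% and 32.1% of all genes tested. The cytochrome c gene CYCS (-1.26) and CASP2 (-0.48) fell, and the caspase 8 inhibitor CFLAR (1.11) and the death receptor TNFRSF10B (0.37) rose.

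Myeloid differentiation genes rose. Of 22 tested monocyte genes 17 were higher and 2 lower, with a median of 1.28, and the 24 named genes summed to 2300 to 2370 CPM with venetoclax and to 8320 to 8520 CPM in the combination. LYZ, the lysozyme gene (chromosome 12, 69348381 to 69354234, GRCh38), went from 179, 173 and 177 CPM to 3855, 4041 and 4076 CPM (4.50, SE 0.049, adjusted p = 3.44e-19). It took 0.0169 to 0.0175% of all counts in the venetoclax libraries and 0.378 to 0.394% in the combination libraries. S100A8, a calcium-binding protein of monocytes, rose by 4.02, the matrix proteoglycan gene VCAN by 3.25 and CSF1R, the receptor for macrophage growth factor, by 3.21. CSF1R was at 7.44, 7.05 and 6.02 CPM with venetoclax and at 61, 62 and 66.2 CPM in the combination. The programme was not complete: CD14, the monocyte surface receptor, was at 0.649, 0.355 and 0.789 CPM and 0.354, 0.271 and 0.314 CPM and did not pass the test, and the Fc receptor FCGR1A (-1.17) and the scavenger receptor CD163 (-0.84) fell. These 3 genes were picked out after their values were seen. In bulk RNA, more cells of a kind and more RNA per cell cannot be told apart.

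Granulocyte genes moved both ways: of 16 named 8 were tested, of which 5 rose and 2 fell (1 fell with upper-quartile scaling or with no filter on low counts), with a median of 1.12. The neutrophil protease gene CTSG went from 1358, 1366 and 1324 CPM to 3546, 3609 and 3679 CPM (1.42, SE 0.065), and ELANE (1.66) and AZU1 (3.04) rose, while the gelatinase gene MMP9 fell (-4.61). AZU1 was uneven, at 18.4, 47.2 and 47.8 CPM in the combination libraries. Of 9 tested AML markers 8 were higher and none lower, with a median of 0.76: CD38 rose by 1.64, the myeloid factors SPI1 and CEBPA by 1.17 and 1.06, PTPRC by 0.66 and CD33 by 0.37. Of 15 tested HOX and stem cell genes 3 rose and 4 fell, beside 32.1% higher and 34.2% lower of all genes tested. HOXA9 was at 0.76 and HOXA5 at -1.16. Lysosomal genes were higher in 20 of 25 cases and lower in 2, with a median of 0.55. The progranulin gene GRN went from 244, 257 and 245 CPM to 963, 1002 and 1033 CPM (2.01, SE 0.076), and the saposin gene PSAP (1.24), the glucosidase gene GAA (1.02) and TFE3 (0.85), a transcription factor of lysosomal genes, rose. Autophagy genes were higher in 17 of 29 cases and lower in 5 (3 without venetoclax replicate 1). Members called higher included GABARAPL1 (1.88), GABARAP (0.88), the mitophagy receptor BNIP3L (0.83) and the cargo receptor SQSTM1 (0.75). The largest log2 fold change in the list was 2.84.

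Interferon-stimulated genes were lower in 20 of 33 cases and higher in 6, with a median of -0.43. MX1, an antiviral GTPase, went from 15.9, 16.3 and 15.5 CPM to 1.92, 2.11 and 1.78 CPM (-3.03, SE 0.11, adjusted p = 1.04e-12). OAS3, which makes the activator of RNase L, went from 22.1, 20.9 and 23.3 CPM to 3.14, 4.06 and 3.77 CPM (-2.60, SE 0.11), and OAS2 changed by -2.50. STAT2 (1.22), a subunit of the interferon transcription factor, and SAMHD1 (0.93) rose. The core of the interferon response element, TTTCNNTTT, stood in the 250 bases of 16 of the 24 members with a promoter entry (66.7%), against 9.28% of all promoters and 6.57% of those of tested genes. OAS3 (chr12:112938224-112938473, plus strand) is shown as the member with values here that held it, with the matches in capitals on the reverse strand, 142 to 134 and 11 to 3 bases before the start.
OAS3: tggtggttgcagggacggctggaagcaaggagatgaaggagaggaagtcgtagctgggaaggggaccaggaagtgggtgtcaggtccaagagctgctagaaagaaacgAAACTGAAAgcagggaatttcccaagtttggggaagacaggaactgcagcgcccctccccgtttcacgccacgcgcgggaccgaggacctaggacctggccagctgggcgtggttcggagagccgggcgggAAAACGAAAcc
Inflammatory genes moved both ways, 8 of 22 higher and 8 lower, beside 32.1% and 34.2% of all genes tested. IL1B, a fever-inducing cytokine, fell from 48.4, 52.5 and 48.5 CPM to 9.06, 8.67 and 8.02 CPM (-2.54, SE 0.081). TNFAIP3 fell by 2.60 on the log2 scale, while the NF-kB inhibitor gene NFKBIA (1.25) and its relative NFKBIZ (1.04) rose. The class I genes HLA-B (0.54), HLA-C (0.48) and B2M (0.27) rose and the peptide carrier TAP2 fell (-0.79).

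Outside the lists, the largest rises and falls were of genes near absent in one group. CDH6, a cadherin (chromosome 5, 31193686 to 31329146, GRCh38), had 6, 1 and 6 counts in the venetoclax libraries and 665, 684 and 634 in the combination libraries, a log2 fold change of 7.28 (SE 0.27). OLFML3 (5.56), the exchange factor FGD2 (4.81), the metalloproteinase family genes ADAMTS10 (4.05) and ADAM28 (3.52), RHBDL3 (3.61), the cyclase GUCY2D (3.76), TIFAB (3.63), MS4A6A (3.63) and PILRA (3.39) rose as well. MS4A6A, a membrane protein of monocytes, moved furthest in counts among these, from 10.1, 8.82 and 9.86 CPM to 121, 118 and 118 CPM. Among genes abundant with venetoclax, TIMP3, an inhibitor of metalloproteinases, fell from 1089, 1103 and 1067 CPM to 121, 132 and 129 CPM (-3.09, SE 0.042, adjusted p = 6.02e-18). OSMR, a receptor subunit for oncostatin M, fell from 77.4, 78.1 and 81.2 CPM to 10.3, 11.3 and 11.6 CPM (-2.83, SE 0.061). The fatty acid receptor GPR84 (-6.39), C3orf52 (-5.98), the vesicle protein SYT2 (-4.69), the channel ANO4 (-3.97), PPFIA2 (-3.46), TUBA8 (-3.45), the integrin ITGB5 (-3.44) and the carrier SLCO4A1 (-3.26) fell too.

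Collagen and other stromal genes were among the lower genes, and their counts varied within groups. COL1A2 had 214, 204 and 141 counts in the venetoclax libraries and 12, 18 and 13 in the combination libraries (-3.62, SE 0.45). COL1A1 had 156, 204 and 97 and 14, 4 and 6 counts, and POSTN 28, 27 and 8 and 0, 0 and 0. Of 11 named stromal markers 9 were tested, 7 were lower and none higher, and POSTN and THY1 were at 0 in every combination library. THBS1, an adhesion protein also made by stromal cells, had 103, 98 and 216 counts with venetoclax and 3, 6 and 9 in the combination. COL1A2 was among the 7 lower markers, and THBS1 changed in the same direction. PDGFRB did not fall, at 17, 16 and 17 counts with venetoclax and 18, 19 and 18 in the combination. Within the venetoclax group THBS1 was highest in replicate 3, where COL1A1, COL1A2 and POSTN were lowest. The part of the markers in the fall of THBS1 was not tested.

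Whether ERKi acted alike without venetoclax was asked from the other libraries. The effect of ERKi without venetoclax (ERKi minus DMSO) rests on 6 other libraries, so the 2 effects share none. Of the 4864 genes higher in the combination 3578 (73.6%) were also called higher with ERKi alone, 254 (5.22%) were called lower and 1032 (21.2%) were not called. Of the 5183 lower genes 3916 (75.6%) were also called lower, 270 (5.21%) were called higher and 997 (19.2%) were not called. For scale, 5232 of all 15173 tested genes were called higher and 5346 lower with ERKi alone. Seen from the other side, 3578 of the 5232 genes called higher with ERKi alone (68.4%) were also called higher on top of venetoclax and 3916 of the 5346 called lower (73.3%) were also called lower. The difference between the 2 effects, tested gene by gene, was called above 0 for 3227 genes (21.3%) and below 0 for 2724 (18.0%), where above means a greater rise or a smaller fall in the presence of venetoclax. DMSO replicate 1 was unlike the remaining DMSO libraries, and with it left out the difference was called above 0 for 3306 genes and below 0 for 2875.

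Proliferation genes fell less when venetoclax was present. The difference lay above 0 for 32 of 37 G1/S, 33 of 34 G2/M, 26 of 30 ribosome biogenesis and 15 of 22 nucleotide synthesis genes, and below 0 for none of the G1/S, G2/M or nucleotide genes. Without DMSO replicate 1 the counts above 0 were 33, 34, 28 and 16 in the same order. The median log2 effect of ERKi was -1.30 with venetoclax and -1.84 without it for G1/S genes, -0.60 and -1.37 for G2/M genes, and -0.50 and -1.06 for ribosome biogenesis genes. CCNA2 changed by -1.15 with venetoclax and by -1.88 without it (difference 0.74, SE 0.067, adjusted p = 7.66e-07), and MCM4 by -1.30 and -1.95 (difference 0.65, SE 0.05). CDC25B rose by 0.31 with venetoclax, where ERKi alone gave -0.46. MYC fell less as well, at -0.25 with venetoclax and -0.92 without it (difference 0.67, SE 0.079, adjusted p = 9.34e-06). Glycolysis genes shared this direction in 15 of 23 cases, and cytosolic ribosomal protein genes, whose median effect was 0.43 with venetoclax and 0.15 without it, in 21 of 35.

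ERK output genes did not all do so. The difference was above 0 for 8 of 16, among them EGR1 (1.39, SE 0.27), ETV4 (0.78, adjusted p = 0.0488) and CCND1 (0.52, SE 0.16); the count was 5 without combination replicate 1. It was below 0 for DUSP6 (-0.91, SE 0.24) and PHLDA1 (-2.18, SE 0.17, adjusted p = 2.06e-07). PHLDA1 changed by -3.48 with venetoclax and by -1.30 without it.

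**Figure D4:**
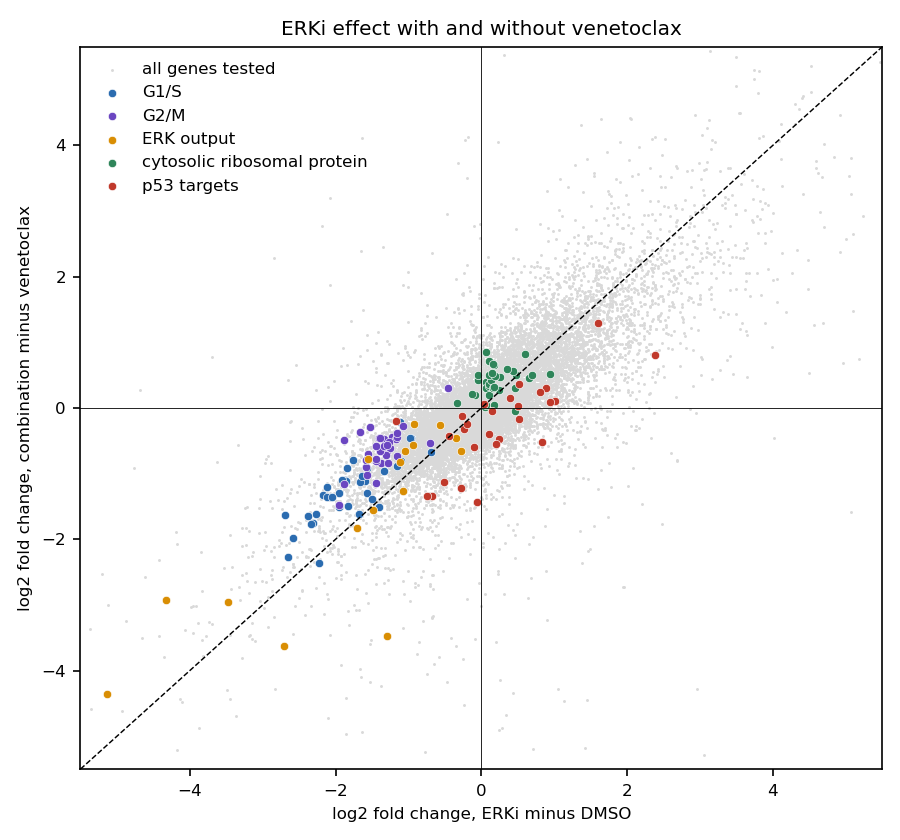
Log2 fold change on ERKi without venetoclax (horizontal axis, ERKi minus DMSO) and with it (vertical axis, combination minus venetoclax) for the tested genes (grey) and 5 lists (coloured); the dashed line marks equal effects, and 56 genes lie outside the axes, which end at 5.5. G1/S and G2/M genes lie mostly above the dashed line, p53 targets mostly on or below it.

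Targets of p53 differed the other way, and some death genes with them. Of 27 tested p53 targets 16 lay below 0 and 1 above it, with median effects of -0.20 with venetoclax and 0.15 without it; without DMSO replicate 1 the counts were 17 and 1. CDKN1A changed by -0.52 with venetoclax, whereas ERKi alone gave a rise of 0.83 (difference -1.35, SE 0.12, adjusted p = 6.58e-07). Its 4 groups were at 28.7, 26.3 and 23.4 CPM with DMSO, 45.3, 49.1 and 45.3 with ERKi, 16.4, 15.5 and 15.9 with venetoclax and 10.5, 12.5 and 10.4 in the combination. MDM2 (-0.71, SE 0.074), SESN1 (-0.75) and RB1 (-0.73) differed in the same direction. BMF rose by 1.82 with venetoclax and by 3.12 without it (difference -1.30, SE 0.11, adjusted p = 3.13e-07). BCL2L11 rose with ERKi alone (0.61) and not on top of venetoclax (difference -0.56, SE 0.067, adjusted p = 1.01e-05). DNM1L changed by -0.68 with venetoclax and by -0.61 without it, and the difference did not pass the test (-0.07, SE 0.073, adjusted p = 0.499). For FIS1 (0.54, SE 0.14), MIEF1 (0.55, SE 0.098) and MFN2 (0.42, SE 0.069) the difference was above 0. Among monocyte genes LYZ rose more with venetoclax (0.96, SE 0.06, adjusted p = 2.54e-08) and S100A8 less (-0.68, SE 0.2).

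Of 1390 tested long non-coding RNAs 42.7% were higher and 7.19% lower, with a median of 0.57, beside 30.8% and 39.7% of 12205 protein-coding genes, with a median of -0.07. The classes differ in level, so the shares were also taken at like levels. Between 5 and 20 CPM 59.3% of long non-coding RNAs were higher and 13.4% lower, against 35.0% and 32.6% of protein-coding genes, and between 20 and 100 CPM 63.0% and 8.70%, against 29.6% and 46.7%. MIR124-1HG, a microRNA host transcript, went from 4.89, 5.53 and 5.62 CPM to 46, 49.2 and 42.4 CPM (3.10, SE 0.12). DLEU2 (-1.83), LINC00504 (-2.34), OLMALINC (-2.12) and MIR222HG (-1.71) were among the falls. Whether strand was used in the counting is not given here, and reads of an antisense transcript and of the gene it overlaps cannot be told apart.

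RNAs with no long poly(A) tail rose in the same libraries, on a list added after the values were seen. Of 28 named 10 were tested, and all 10 of those were higher, with a median of 4.22, where ERKi alone gave 0.54. RNA45SN1 and RNA45SN3, copies of the ribosomal precursor, passed the filter on low counts only through the combination libraries. RNA45SN1 had 4, 5 and 6 counts with venetoclax and 72, 93 and 91 in the combination. The direction of both genes was thus fixed by the filter. RN7SK, the small nuclear RNA that holds back elongation, went from 6.59, 5.27 and 4.88 CPM to 109, 103 and 142 CPM (4.40, SE 0.43). The 7SK, RMRP, SNORD3A and ribosomal precursor RNAs together took 9.46 to 11.3 CPM with venetoclax, 220 to 311 in the combination and 15.1 to 70.0 with ERKi alone. Copies of the ribosomal precursor share sequence, so their values are uncertain one by one. Replication-dependent histone genes, whose messages end in a stem loop in place of a tail, were higher in 13 of 15 tested cases and lower in none, with a median of 1.59; 1 was lower without DMSO replicate 1, venetoclax replicate 3 or combination replicate 1 or 3. H2BC12 went from 6.39, 3.96 and 5.28 CPM to 18.7, 17.6 and 19 CPM (1.82, SE 0.12), although the G1/S genes fell. The part that the amount of untailed RNA in the libraries had in the values of histone and long non-coding genes was not tested.

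**Figure D5:**
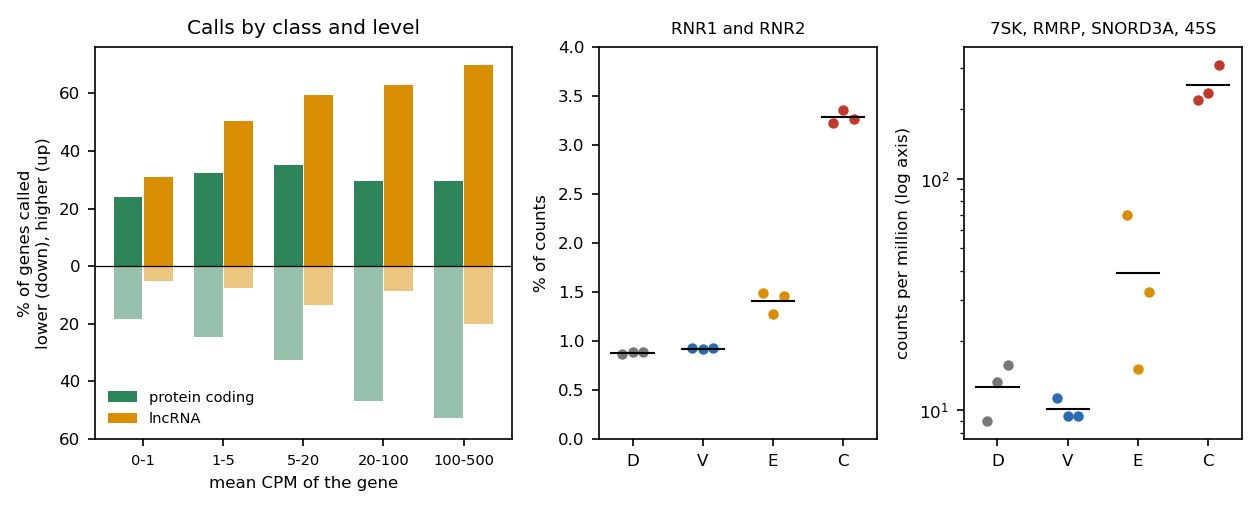
Left, percent of protein-coding and long non-coding genes called higher (upward bars) and lower (downward bars) by mean CPM of the gene; middle, percent of counts in RNR1 and RNR2 in each library; right, CPM of 7SK, RMRP, SNORD3A and ribosomal precursor RNAs (log axis), with a bar at each group mean (D, DMSO; V, venetoclax; E, ERKi; C, combination). The combination libraries lie at 3.22 to 3.36% and at 220 to 311 CPM, above the 9 other libraries.

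A few genes swung between replicates. Of 10235 genes with a mean of at least 5 CPM, 49 were at least 3-fold apart within one of the groups compared, and 13 of these were called. PSMB3 shows it: it had 43, 3.7 and 2.81 CPM in the venetoclax libraries and 1.11, 1.46 and 2.04 CPM in the combination libraries, so its log2 fold change of -3.42 rests on 1 venetoclax library. EEF1D had 56.4, 4.88 and 5.66 CPM in the combination libraries, and its value of 2.07 became -0.02 without combination replicate 1 (adjusted p = 0.974).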

How the data were processed

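The authors deposited raw read counts for 54628 gene symbols in 12 libraries. The submitters' processing notes name the hg38 build and the tools HISAT2, HTSeq and DESeq2 with no version or role. Neither annotation nor strand setting is given in the sources used here; overlapping and antisense genes may share reads. Positions came from RefSeq (GRCh38) by symbol, which matched 14693 of the 15173 tested genes, and promoters from its table, which held 243 of the 320 named genes. That table reads 5′ to 3′ along the gene, since the bases just after the start were found as printed in a GENCODE transcript for 13162 of 17393 symbols compared and only as the reverse complement for 2.

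The deposited counts went into edgeR 4.0.16 (R 4.3.3) with filterByExpr (minimum count 10, minimum total 15), TMM scaling, 1 model with 4 groups over all 12 libraries (8 residual degrees of freedom), quasi-likelihood F tests and Benjamini-Hochberg adjustment over all tested genes. Genes were called at an adjusted p under 0.05. TMM takes most genes as unchanged, so changes are relative to it. The common biological coefficient of variation was 0.0727. The prior count behind fold changes was 0.125, and standard errors were taken as |log2 fold change| over the root of F. The contrasts were combination minus venetoclax, ERKi minus DMSO, and their difference. DMSO replicate 1 stood apart from its replicates and entered only the last 2 and the shared spread. Tested on simulated data for the combination against venetoclax (14825 genes), the fit recovered 76.1, 89.6 and 93.9% of 1.5-, 2- and 4-fold changes, with 6 false calls; no broad shift was simulated.

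The comparison, gene lists and rules were chosen with earlier results of these data known, so lists are described by counts and medians, with no test. Named genes were the 15 largest rises and falls among called protein-coding genes (mean CPM at least 5, groups not overlapping), the 5 largest non-coding changes each way, up to 5 called members per list (lowest adjusted p), and all tested members of the ERK, immediate early, BCL2, fission, fusion and cell cycle inhibitor lists. The 8 largest differences each way and the 6 largest rises and falls relative to their error were added, and other genes are marked where named. Alternatives were RLE and upper-quartile scaling, DESeq2 1.42.0, limma-voom (limma 3.58.1), other filters, scaling without mitochondrial and histone genes, a replicate block, a fit to the 6 compared libraries alone, and leaving out each library in turn. Scaling that also left out RNAs without a tail was added after seeing the data. Some genes the rule names are given only in figures or are not reported here. Figures were drawn with matplotlib 3.10.9.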

Additional observations from a re-analysis of the deposited data

Results flagged for a closer look

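The difference between the effect of ERKi with venetoclax and its effect without it was past the threshold for 3227 genes above 0 and 2724 below 0 (edgeR, adjusted over all tested genes). The largest differences each way follow.

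Of the 8 largest differences above 0, a pair had steady counts in the ERKi and combination libraries. For CDH6 the counts without ERKi were near the floor, at 3, 11 and 3 with DMSO and 6, 1 and 6 with venetoclax. Its fold changes thus rest on few reads in those groups. CDH6, a cadherin, changed by 7.28 with venetoclax and by 3.97 without it, a difference of 3.31 (SE 0.61, adjusted p = 0.000474), with 0.145, 0.518 and 0.142 CPM in the DMSO, 3.79, 4.8 and 4.33 in the ERKi, 0.3, 0.0507 and 0.296 in the venetoclax and 33.7, 37.1 and 33.2 in the combination libraries. PCOLCE2, a collagen processing protein, changed by 2.30 and 0.09, a difference of 2.21 (SE 0.19, adjusted p = 4.51e-07); it stood at 3.89, 4.11 and 4.15 CPM with ERKi and at 16.7, 17.7 and 17.7 CPM in the combination. In the other 6 the counts of single replicates lay several-fold apart: SCAMP3 (5.13, SE 1.7), AATF (3.93, SE 0.86), VARS1 (3.08, SE 1.0), EEF1D (3.07, SE 1.0), BAG6 (2.31, SE 0.76) and PIP4K2B (2.19, SE 0.82). SCAMP3, for one, was at 1.67, 22.3 and 1.41 CPM in the 3 combination libraries.

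GHR, the growth hormone receptor, rose with ERKi alone (1.64) and fell on top of venetoclax (-0.95), a difference of -2.59 (SE 0.12, adjusted p = 1.05e-09); its libraries read 13.5, 16 and 14.9 CPM with DMSO, 46.3, 48.3 and 43.3 with ERKi, 16.5, 16 and 16.2 with venetoclax and 7.74, 9.05 and 8.43 in the combination. CACNB4, a calcium channel subunit, went the same way (1.94 alone, -0.51 on top, difference -2.45, SE 0.19). PRR16 differed by -2.76 (SE 0.22) and STC2 by -3.78 (SE 0.6), the latter at 0.0506, 0.217 and 0.0524 CPM in the combination. COL1A2 (-3.28, SE 0.56) is among the stromal markers, and THBS1 (-5.88, SE 0.87) differed in the same direction. The summed level of these markers was 17.2 to 94.8 CPM with DMSO and 38.3 to 92.8 CPM with ERKi. It was 40.8 to 76.4 CPM with venetoclax and 26.8 to 28.3 CPM in the combination, where most of it was FN1. The part of these markers was not tested. FRG1 (-2.93, SE 1.0) differed several-fold between replicates, with 1.45, 18.4 and 1.09 CPM in the venetoclax libraries.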

How the results depend on the processing

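With edgeR as described 4864 genes were higher and 5183 lower in the combination. The alternatives run gave 4481 to 5790 higher and 4246 to 5563 lower: DESeq2 4800 and 4973, limma-voom 4832 and 5144, no filter 5152 and 5150, upper-quartile scaling 5790 and 4246, and leaving out single venetoclax or combination libraries 4481 to 4567 and 4875 to 4975. The difference stayed within 2731 to 3416 genes above 0 and 2328 to 2904 below. Same-numbered libraries of the 2 groups did not deviate together (correlations -0.074, -0.015 and -0.018), so the numbers do not pair the samples; with the replicate block 4789 genes were higher and 5128 lower, and the difference was called for 3092 and 2642. Of 78 list counts in the combination against venetoclax, those of the nuclear respiratory chain moved from 32 to 21 lower and from 3 to 7 higher with upper-quartile scaling, and 5 were higher with only the 6 libraries compared. That scaling also moved the higher members of the ATF4 list from 2 to 4, of the citric acid cycle from 2 to 4, of the HOX list from 3 to 5 and of the death genes from 3 to 5. In the difference, ERK output genes above 0 went from 8 to 5 without combination replicate 1, and those below from 2 to 4 without DMSO replicate 3. EEF1D, at 2.07 with all libraries, ranged from -0.02 (without combination replicate 1) to 2.54 with single libraries left out. Of 5436 values of named genes under the alternatives 51 lost their call and 28 gained one. Among genes called in the main fit or the alternative, 1 value, that of EEF1D, changed sign. Sign changes between uncalled values were not counted. For the difference 276 of 6718 values lost their call and 82 gained one. The cause was not tested. With 3 libraries per group an exact permutation test of a single value allows no p below 0.1, and genes of few counts, such as BCL2A1, are measured too thinly for small differences to be detectable.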

Other observations

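The other genes of the MYC network and the iron and antioxidant genes moved both ways. Of 11 tested MYC network genes 5 rose and 4 fell, beside 32.1% higher and 34.2% lower of all genes tested. The MYC antagonists MXD4 (1.15, SE 0.068), MXD3 (0.81, SE 0.11) and MNT (0.37) rose. The glucose sensor partner MLXIP (1.10, SE 0.05) rose too, and MXI1 fell (-0.31). MXD4 went from 26.1, 24.7 and 24.7 CPM to 54.2, 57.9 and 55.5 CPM, with no overlap between the groups. Of 18 tested NRF2 targets 6 rose and 7 fell, near the shares of all genes tested, so these counts say nothing particular about that list. The ferritin light chain gene FTL went from 1204, 1246 and 1169 CPM to 2124, 2095 and 2192 CPM (0.82, SE 0.084), whereas the quinone reductase gene NQO1 (-0.84, SE 0.058), the thioredoxin gene TXN (-0.70, SE 0.046) and NFE2L2, which encodes NRF2 (-0.56, SE 0.053), fell.

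Among insulin and FOXO genes, SESN3 rose from 231, 229 and 235 CPM to 613, 608 and 608 CPM (1.40, SE 0.075) and TRIB2, a pseudokinase, fell from 61.2, 62.6 and 62.1 CPM to 28.4, 29.1 and 27.2 CPM (-1.13, SE 0.052). TRIB2 changed by 0.29 with ERKi alone, and the difference was -1.43 (SE 0.072, adjusted p = 2.52e-09). Other genes with a rise large against their error were NHSL2 (3.32, SE 0.069), SCUBE1 (2.72, SE 0.059) and the lysosomal fucosidase gene FUCA1 (2.88, SE 0.064).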
